A study of Mus musculus with 12 samples.

Results

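The interaction of CpG and gefitinib asks, gene by gene, whether the response of macrophages to CpG was the same with gefitinib present as without it. RAW264.7 cells, an established mouse macrophage-like line, were measured on 12 Illumina bead arrays that formed a 2 by 2 design, and all 12 arrays of the series entered every value here. The 4 groups, with 3 biological replicates each per the labels, were cells given CpG with gefitinib, cells given CpG alone, cells given gefitinib alone and untreated cells. Cells in medium with serum received 10 µM gefitinib 1 h ahead of the oligonucleotide, which was used at 10 µg/ml, and CpG exposure lasted 6 h. The labels name no vehicle and do not give the incubation time of cells without CpG, so a vehicle effect and a gefitinib effect cannot be told apart. The study's stated comparison was CpG with gefitinib against CpG, and the other pair of groups completes the square.

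CpG oligonucleotides mimic bacterial DNA. In macrophages they are sensed in endosomes by TLR9, which signals through MyD88 and IRAK kinases to NF-kB, MAP kinases and interferon regulatory factors, and so switches on cytokines, chemokines and, through secreted interferon beta, the interferon-stimulated genes. Gefitinib blocks the ATP site of the EGF receptor kinase and is known to inhibit other kinases as well, RIPK2 among them. If the agents acted independently on the log scale, the effect of both would equal the sum of their single effects, and the interaction would be 0. The interaction given here is the CpG effect with gefitinib (CpG with gefitinib minus gefitinib) minus the CpG effect without it (CpG minus untreated), in log2 units.

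Of the 25697 probes, between 10705 and 11181 were detected per array, and 8101 named genes were tested. Of the macrophage markers with a probe, 7 of 8 were detected on all 12 arrays, while Itgam was detected on the 3 CpG arrays only. Of the fibroblast and epithelial markers, 8 of 9 were detected on no array and Cdh1 on 11, and of the lymphocyte and granulocyte markers 5 of 7 on none, Cd3d on 3 and Elane on 2. All 4 probes of Egfr, the usual target of gefitinib, were detected on 0 arrays, so that gene was not tested. The first principal component held 64.6% of the variance and set the 3 CpG arrays apart from the other 9. Arrays of CpG with gefitinib and of gefitinib differed by a root mean square of 0.257 log2 units over genes, against 0.261 among the arrays of CpG with gefitinib and 0.259 among the gefitinib arrays. No gene separated these 2 groups past the threshold, so the CpG treatment of the arrays labelled CpG with gefitinib has no check in their own values.

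Non-additive genes were many, and nearly all of one kind: a CpG response that was present without gefitinib and was not detected with it. The interaction passed the threshold (limma, adjusted p under 0.05 over all genes) for 1000 of 8101 genes, or 12.3%, of which 486 (6%) were negative and 514 (6.34%) positive. Among these, 482 had risen with CpG alone and had a negative interaction, 500 had fallen with CpG alone and had a positive one, and 18 had no CpG effect past the threshold. The classes for a CpG response enlarged by gefitinib, or called only with gefitinib, held 0 genes each, which follows from the absence of calls for CpG with gefitinib. The interaction contains the CpG and untreated arrays with the opposite sign, so the opposition of signs is partly built into these counts. The CpG effect with gefitinib shares no array with the CpG effect without it, and is therefore given separately for every group of genes.

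With gefitinib, CpG changed 0 of 8101 genes past the threshold (0% called, limma), and 252 genes, or 3.11%, had an unadjusted p under 0.05. Without gefitinib it changed 2054 genes (25.4%), with 813 higher (10%) and 1241 lower (15.3%). The CpG effect with gefitinib lay between -0.72 and 0.65 log2 units over all genes, and its 95% confidence interval stayed within a 2-fold change for 8075 of them. For the 268 genes (3.31%) that CpG alone raised at least 2-fold, the median CpG effect was 0.02 with gefitinib, against 1.64 without it. For the 118 genes (1.46%) that CpG alone lowered at least 2-fold, it was -0.05 with gefitinib, against -1.20 without it. Of these, 263 of the 268 and 110 of the 118 had a called interaction, against 12.3% of all genes. Those counts are partly built in, since the CpG and untreated arrays that chose the genes also enter the interaction. The mean level of the 268 genes per array was 6.59, 6.54 and 6.60 in CpG with gefitinib, 8.75, 8.65 and 8.71 in CpG, 6.58, 6.52 and 6.52 in gefitinib, and 6.67, 6.57 and 6.63 in untreated cells. The genes were chosen on the CpG and untreated arrays, so the gap between those 2 groups is a description, while the arrays of CpG with gefitinib and of gefitinib took no part in the choice.

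**Figure D1:**
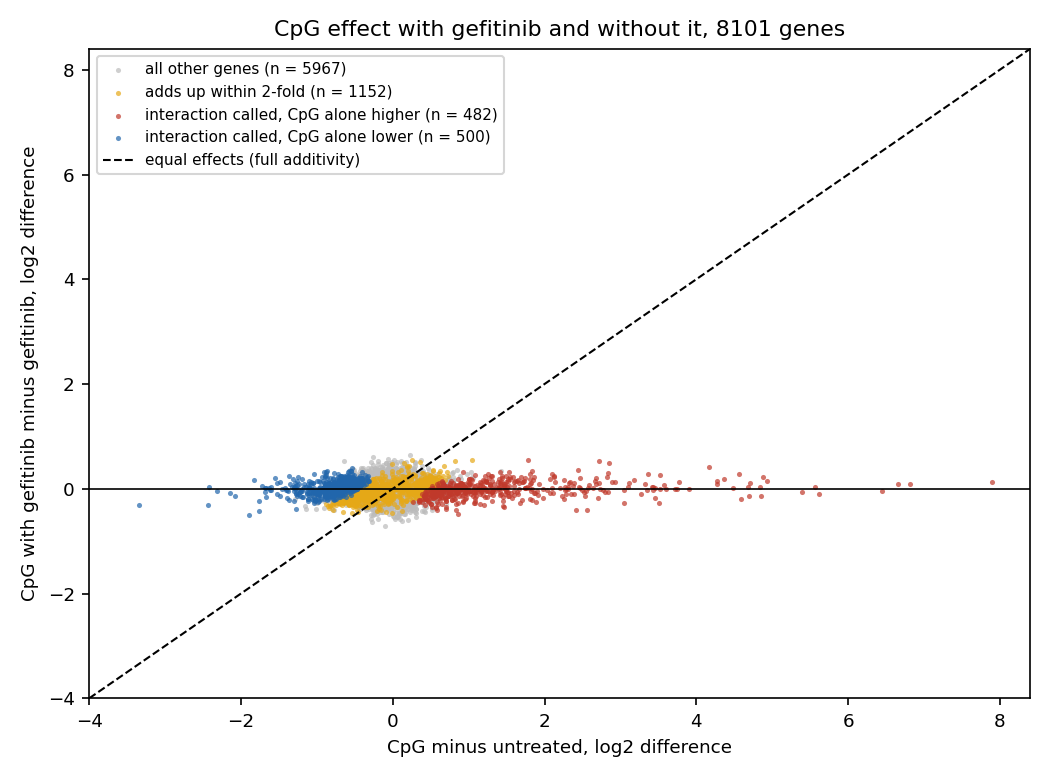
Each point is 1 of 8101 genes, with its CpG effect with gefitinib (CpG with gefitinib minus gefitinib) on the vertical axis and its CpG effect without gefitinib (CpG minus untreated) on the horizontal axis, both in log2 units. Fully additive genes would lie on the dashed line, while the points, interaction calls in red and blue included, lie along the horizontal line at 0, between -0.72 and 0.65.

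Several inflammatory mediators were detected in CpG cells and at or near background elsewhere. Of the 1000 called genes, 60 were detected on all 3 CpG arrays and on none of the other 9. Detection was judged by the probe that stood for the gene. Their folds are therefore lower bounds, taken against the dimmest detected signal. Those probes passed the detection filter through the CpG arrays alone and had to differ, so no size or p-value of the interaction is given for them. Il1b, the cytokine interleukin-1 beta, had log2 signals of 4.68, 4.43 and 4.54 in CpG with gefitinib, 12.74, 11.98 and 12.20 in CpG, 4.49, 4.38 and 4.42 in gefitinib, and 4.37, 4.47 and 4.39 in untreated cells. Only the CpG arrays were high, and the other 3 groups overlapped at background. It was at least 168-fold lower in CpG with gefitinib than in CpG, and at least 167-fold higher in CpG than in untreated cells. Cxcl2, a chemokine that attracts neutrophils, had 4.50, 4.44 and 4.64 in CpG with gefitinib, 11.29, 11.31 and 11.50 in CpG, 4.54, 4.47 and 4.30 in gefitinib, and 4.53, 4.59 and 4.52 in untreated cells. It showed the same layout, with bounds of 87.8-fold lower in CpG with gefitinib than in CpG and 87.2-fold higher in CpG than in untreated cells.

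The other genes of this kind named by the rule were Ccl7, a monocyte chemokine, Csf3, the granulocyte growth factor G-CSF, Phlda1, an early gene of MAP kinase signalling, Il1a, the sister cytokine of Il1b, Ifi202b, an interferon-inducible DNA sensor family member, and Fas, a death receptor. Their lower bounds for CpG with gefitinib below CpG were 64.4-fold for Ccl7, 38.1-fold for Csf3, 32.8-fold for Phlda1, 19.7-fold for Il1a, 17.3-fold for Ifi202b and 9.37-fold for Fas. A second probe of Csf3, detected on 10 arrays, gave an interaction of 0.17, so the probes of that gene disagree. A second probe of Fas was detected on 4 arrays and gave -2.88. Ccl2, a monocyte chemokine detected on all 3 CpG arrays and on 1 array of each other group, had an interaction of -6.57, a size that rests on levels near background; it was named after its values were seen. Ifnb1, which encodes interferon beta, had 4.37, 4.65 and 4.45 in CpG with gefitinib, 7.67, 7.78 and 7.98 in CpG, 4.27, 4.34 and 4.59 in gefitinib, and 4.45, 4.53 and 4.48 in untreated cells. It was at least 7.46-fold lower in CpG with gefitinib than in CpG. Il6, the cytokine interleukin-6, was at least 6.73-fold lower, Irf7, the interferon regulatory factor that amplifies type I interferon, at least 7.88-fold lower, and Ptgs2, the inducible prostaglandin synthase, at least 3.57-fold lower in CpG with gefitinib than in CpG. Nos2, which makes nitric oxide in activated macrophages, could not be tested, since its probe passed detection on only 2 arrays.

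Among genes detected in every group, where the interaction has a measured size, the lowest values belonged to acute-phase, feedback, chemokine and interferon-stimulated genes. Tnf, the cytokine tumour necrosis factor, had 8.68, 8.10 and 8.50 in CpG with gefitinib, 12.62, 12.98 and 12.77 in CpG, 8.01, 7.90 and 8.11 in gefitinib, and 8.61, 8.54 and 8.70 in untreated cells. CpG arrays stood above all others without overlap, and gefitinib arrays lay below untreated ones. The CpG effect on Tnf was 0.42 ± 0.15 (SE) with gefitinib, against 4.17 without it, which gave an interaction of -3.75 ± 0.21 (SE, 3 arrays per group; limma, adjusted p = 4.18e-08). Gefitinib alone lowered Tnf by a log2 difference of -0.61 (limma, adjusted p = 0.023), so the sum of both single effects was 3.56, while the measured difference between CpG with gefitinib and untreated cells was -0.19.

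Saa3, an acute-phase serum amyloid made by macrophages, had 5.87, 5.29 and 5.57 in CpG with gefitinib, 11.59, 10.87 and 10.99 in CpG, 5.77, 5.44 and 5.40 in gefitinib, and 6.12, 5.07 and 5.58 in untreated cells. Its interaction of -5.52 ± 0.36 (SE; limma, adjusted p = 2.27e-07) was the lowest among genes detected on at least 2 of 3 arrays in every group. Nfkbiz, a nuclear IkB protein that NF-kB needs for secondary targets such as Il6, had an interaction of -5.00 ± 0.21, with a CpG effect of -0.14 with gefitinib, against 4.86 without it. Socs3, the feedback inhibitor of cytokine receptors, followed with -4.83 ± 0.24 and Il1rn, the interleukin-1 receptor antagonist, with -4.78 ± 0.25 (-2.36 by its other probe, detected on 3 arrays). Hcar2, a receptor for hydroxycarboxylic acids, had -4.65 ± 0.36, and the CC chemokines Ccl3 and Ccl4 had -4.63 ± 0.23 and -4.12 ± 0.22. Zc3h12a, an endonuclease that degrades cytokine messages, had -3.08. These genes span activators, inhibitors and effectors of inflammation, and the CpG effect with gefitinib lay between -0.14 and 0.23 for every one of them.

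Isg15, a ubiquitin-like antiviral modifier, had 4.99, 5.01 and 5.38 in CpG with gefitinib, 9.38, 9.39 and 9.46 in CpG, 4.96, 4.72 and 5.41 in gefitinib, and 4.99, 5.13 and 5.29 in untreated cells. The interaction was -4.17 ± 0.23 (SE; limma, adjusted p = 4.42e-08), with the CpG arrays alone standing apart. Usp18, the protease that removes Isg15 from proteins, had -4.78 ± 0.17, the nucleotide kinase Cmpk2 had -3.72, the ADP-ribosyltransferase Parp14 had -3.37, and Ddx58, the RNA sensor RIG-I, had -3.26. Isg15, Cmpk2, Ddx58 and, above, Hcar2 were detected on 2 of 3 arrays in at least 1 group other than CpG, where their levels are near background.

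A pair of promoters shows the motifs that these gene groups are known for. They are the 250 bases before the RefSeq start of the gene on build GRCm38.p6, 5′ to 3′ on the gene's strand, at chr5:90903649-90903898 (+ strand) for Cxcl2 and chr4:156200819-156201068 (- strand) for Isg15. Capitals mark a kappaB motif in Cxcl2, read on both strands at the same place, and in Isg15 a run of 3 overlapping copies of the interferon-stimulated response element, taken as GAAA, 2 bases of any kind and GAAA.
Cxcl2: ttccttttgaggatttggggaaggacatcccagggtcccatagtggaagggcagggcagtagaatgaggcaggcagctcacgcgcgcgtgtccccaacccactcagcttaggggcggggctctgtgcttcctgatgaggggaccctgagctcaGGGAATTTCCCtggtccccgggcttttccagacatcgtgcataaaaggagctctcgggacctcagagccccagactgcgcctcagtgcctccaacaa
Isg15: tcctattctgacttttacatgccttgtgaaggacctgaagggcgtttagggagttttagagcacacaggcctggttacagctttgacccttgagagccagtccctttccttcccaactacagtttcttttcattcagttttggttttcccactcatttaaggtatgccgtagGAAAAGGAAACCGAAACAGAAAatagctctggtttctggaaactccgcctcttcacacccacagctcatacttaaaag
On either strand, a kappaB motif was present in 14.3% of 273 promoters of the genes whose CpG rise of at least 2-fold was diminished, against 8.72% of the promoters of all genes tested and 7.25% of all 32851 promoters. Other motifs were also more common in these 273 than in the promoters of all genes tested. The interferon-stimulated response element had 11.7% against 2.82%, the AP-1 motif TGANTCA 10.3% against 4.72%, and the C/EBP-ATF response element TGATGNAA 5.49% against 2.1%. The sterol regulatory element TCACNCCAC (0.733% against 0.948%) and the E2F motif TTTCCCGC (0.733% against 1.58%) were less common. The interferon-stimulated response element was present in 30.4% of 46 promoters of the interferon-stimulated list, against 2.82% of the promoters of all genes tested and 2.98% of all promoters. These are matches of letters in a short window and show no binding.

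The lists of inflammatory genes followed the same layout almost throughout. Against the 6% of all genes with a called negative interaction, it was called negative for 10 of 10 measured chemokines, 14 of 17 inflammatory cytokines, 36 of 42 interferon-stimulated genes, 13 of 20 NF-kB subunits, inhibitors and feedback genes and 15 of 21 macrophage effector genes. The only positive call in these 5 lists was Plau, the urokinase activator of plasminogen, with 0.91. The median CpG effect over the measured members was 0.07 with gefitinib, against 4.32 without it for chemokines. It was 0.04 with gefitinib, against 1.79 without it for inflammatory cytokines, and -0.0037 with gefitinib, against 1.71 without it for interferon-stimulated genes. Over all 8101 genes it was -0.0015 with gefitinib, against -0.06 without it. Setting members undetected in untreated cells to their bounds left these 3 medians as they were. Members of each list that were never detected are not counted as measured, and a member detected in CpG alone had to differ, so the shares describe the measured members and no more.

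**Figure D2:**
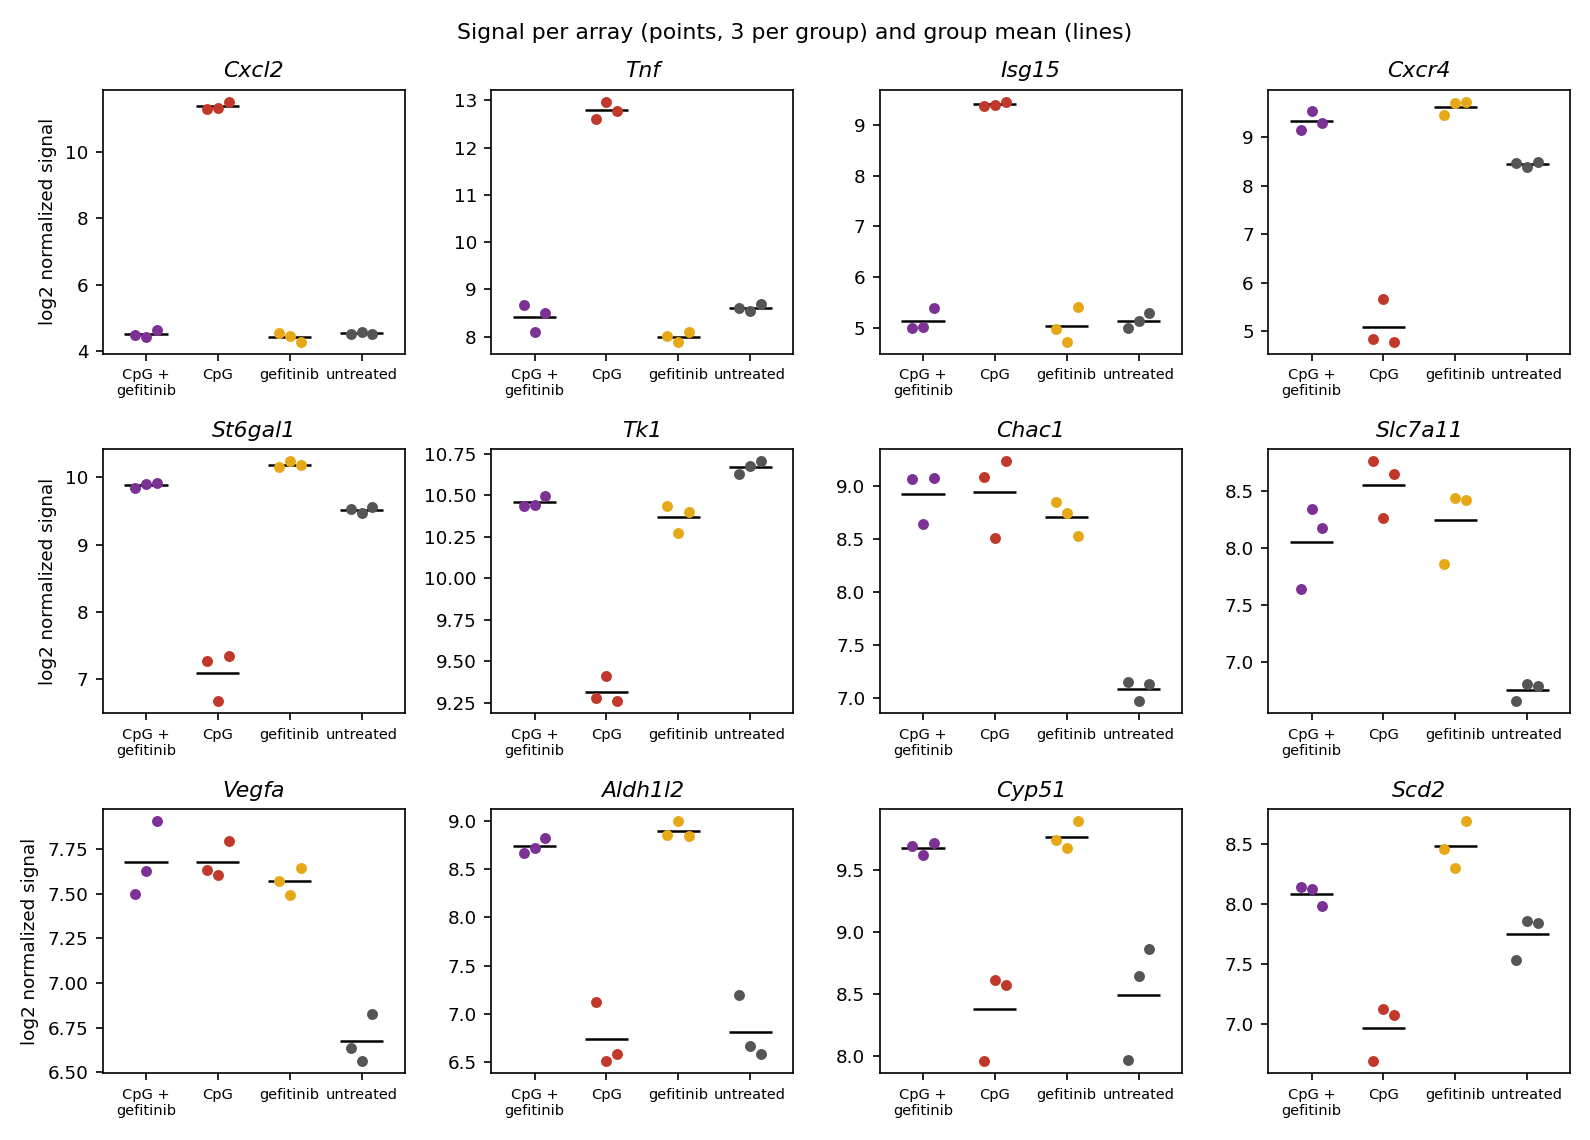
Log2 normalized signal on each of the 12 arrays (points) and group mean (line) for 12 genes, with the groups ordered CpG with gefitinib, CpG, gefitinib and untreated. Cxcl2, Tnf and Isg15 are high in CpG cells only, Cxcr4, St6gal1 and Tk1 are low in CpG cells only, Chac1, Slc7a11 and Vegfa are low in untreated cells only, and Aldh1l2, Cyp51 and Scd2 are high wherever gefitinib was given.

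Early genes and feedback inhibitors of the ERK pathway, which TLR9 and growth factor receptors both activate, were also non-additive where CpG moved them. The interaction was negative for 11 of 21 measured members (6% of all genes) and positive for 0 (6.34% of all genes). Ier3, an early survival gene, had -3.00 and Dusp2, a nuclear MAP kinase phosphatase, -2.32 (-1.02 by its other probe, detected on 10 arrays). Dusp6, the cytosolic phosphatase of ERK, had 10.17, 9.76 and 10.03 in CpG with gefitinib, 10.74, 10.90 and 10.81 in CpG, 9.99, 9.82 and 9.82 in gefitinib, and 10.02, 9.85 and 9.89 in untreated cells. The CpG arrays were above all the others, and the interaction of Dusp6 was -0.79 ± 0.17 (SE; limma, adjusted p = 0.00689), which missed the threshold with median scaling between arrays (adjusted p = 0.112). Of 29 measured components of the Toll-like receptor pathway itself, 6 had a negative interaction and 1 a positive one, against 6% and 6.34% of all genes. Irak3, the inhibitory IRAK, had -1.95 and Irak2, the kinase that sustains the signal, -1.94, while the receptor chaperone Cnpy3 had 0.65 (adjusted p up to 0.0885 under the alternatives).

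Genes lowered by CpG formed the rest of the non-additive set, but for 18 genes, and their loss was not seen with gefitinib. Cxcr4, the receptor for the chemokine CXCL12, had 9.13, 9.53 and 9.29 in CpG with gefitinib, 4.84, 5.66 and 4.79 in CpG, 9.45, 9.70 and 9.73 in gefitinib, and 8.47, 8.37 and 8.48 in untreated cells. The CpG arrays lay far below the rest, only 1 of the 3 detected the probe, so that level is near background, and both gefitinib groups lay above untreated cells. The interaction of Cxcr4 was 3.04 ± 0.28 (SE; limma, adjusted p = 5.96e-06). The CpG effect on Cxcr4 was -0.31 with gefitinib, against -3.34 without it, and gefitinib alone raised it by 1.18 (limma, adjusted p = 0.0042).

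St6gal1, which caps glycans with sialic acid, had 9.84, 9.90 and 9.91 in CpG with gefitinib, 7.26, 6.67 and 7.33 in CpG, 10.15, 10.24 and 10.18 in gefitinib, and 9.53, 9.47 and 9.56 in untreated cells. The 4 groups did not overlap, with CpG lowest and gefitinib highest, and the interaction of St6gal1 was 2.13 ± 0.21 (SE; limma, adjusted p = 1.1e-05). Asb10, a member of the family of substrate adaptors for ubiquitin ligases, had 2.44 ± 0.25, and Cytip, a partner of cytohesins in leukocyte adhesion, 2.28 ± 0.19. The probe of Asb10 was detected on 2 of 3 CpG arrays, so its level there is near background. Fndc10 had 2.06, and Agap1, a GTPase-activating protein for Arf, 1.93. Bhlhe40, a transcription factor of the circadian and immune responses, had 1.68, and Angptl4, an inhibitor of lipoprotein lipase, 1.62. H2ac genes for histone H2A made up 6 of the 15 highest among genes detected on at least 2 of 3 arrays in every group and were led by H2ac11 with 2.00, but these are near-identical copies whose probes may not tell them apart.

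DNA replication genes shared this layout, with smaller sizes. The interaction was positive for 21 of 41 measured members and negative for 0, against 6.34% and 6% of all genes. CpG alone lowered 28 of the 41, against 15.3% of all genes. The median CpG effect over the list was 0.04 with gefitinib, against -0.52 without it. Tk1, the salvage kinase for thymidine, had 10.44, 10.44 and 10.50 in CpG with gefitinib, 9.28, 9.41 and 9.26 in CpG, 10.43, 10.28 and 10.40 in gefitinib, and 10.63, 10.67 and 10.70 in untreated cells. The CpG arrays were lowest without overlap, and the interaction of Tk1 was 1.44 ± 0.13 (SE; limma, adjusted p = 5.77e-06). Gins3, a subunit of the replicative helicase, had 1.32 ± 0.17, with a CpG effect of 0.02 with gefitinib, against -1.30 without it. Of 23 measured mitosis genes 9 had a positive interaction and 0 a negative one, against 6.34% and 6% of all genes. Among the positive ones was Nusap1, a spindle protein, with 0.85. In a population of cells, fewer cycling cells and less message per cell cannot be told apart.

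The 18 genes whose interaction was called with no CpG effect past the threshold had intermediate sizes. Ttk, the spindle checkpoint kinase, was one, with an interaction of 0.88 from a CpG effect of 0.37 with gefitinib and -0.52 without it. This call was lost in 13 of the 20 alternatives, with adjusted p up to 0.102, and the interaction of Ttk was 0.27 with the authors' value table. Of 39 measured respiratory chain genes 0 had a called interaction, and of 29 ribosomal protein genes 1 had, against 12.3% of all genes.

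Receptors that mark macrophages were split by direction. Adgre1, the surface marker F4/80, had an interaction of -1.35 (-2.16 and -2.00 by its other probes) and Fcgr2b, the inhibitory receptor for immunoglobulin G, -1.37 (-0.82 and -1.59 by its other probes), so a rise with CpG alone was not seen with gefitinib. Fcgr3, an activating receptor for immunoglobulin G, had 1.21 and Trem2, a lipid-sensing receptor, 0.92, after a fall with CpG alone. Of the 17 measured identity genes 5 were negative and 2 positive, against 6% and 6.34% of all genes. Among p53 targets Plk2, a stress-induced kinase, had -2.18, with a CpG effect of 0.54 with gefitinib, against 2.71 without it, Mdm2, the ubiquitin ligase of p53, had -1.02 and the stress regulator Sesn1 had 1.52.

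Of 4 measured genes of the EGF receptor family, its ligands and feedback, 2 were negative, against 6% of all genes. Errfi1, the feedback inhibitor of EGF receptor kinases, had 7.41, 7.48 and 7.51 in CpG with gefitinib, 9.34, 9.08 and 9.24 in CpG, 7.39, 7.50 and 7.13 in gefitinib, and 7.43, 7.56 and 7.57 in untreated cells. Only the CpG arrays were high, and the interaction of Errfi1 was -1.57 ± 0.16 (SE; limma, adjusted p = 2e-05). Rhbdf2, which carries the sheddase of TNF and EGF receptor ligands to the surface, had -1.24. Adam17, that sheddase, had -0.52 and counted as adding up (limma, adjusted p = 0.0592), although its CpG effect was -0.02 with gefitinib, against 0.49 without it. In other lists, Slc2a1, the glucose transporter, had -1.28. It was among 5 negative and 0 positive calls of 21 measured glycolysis and hypoxia genes, against 6% and 6.34% of all genes. Lipa, the lysosomal acid lipase, had 0.96 and was the only positive call among 33 measured lysosome and autophagy genes, 4 of which were negative.

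**Figure D3:**
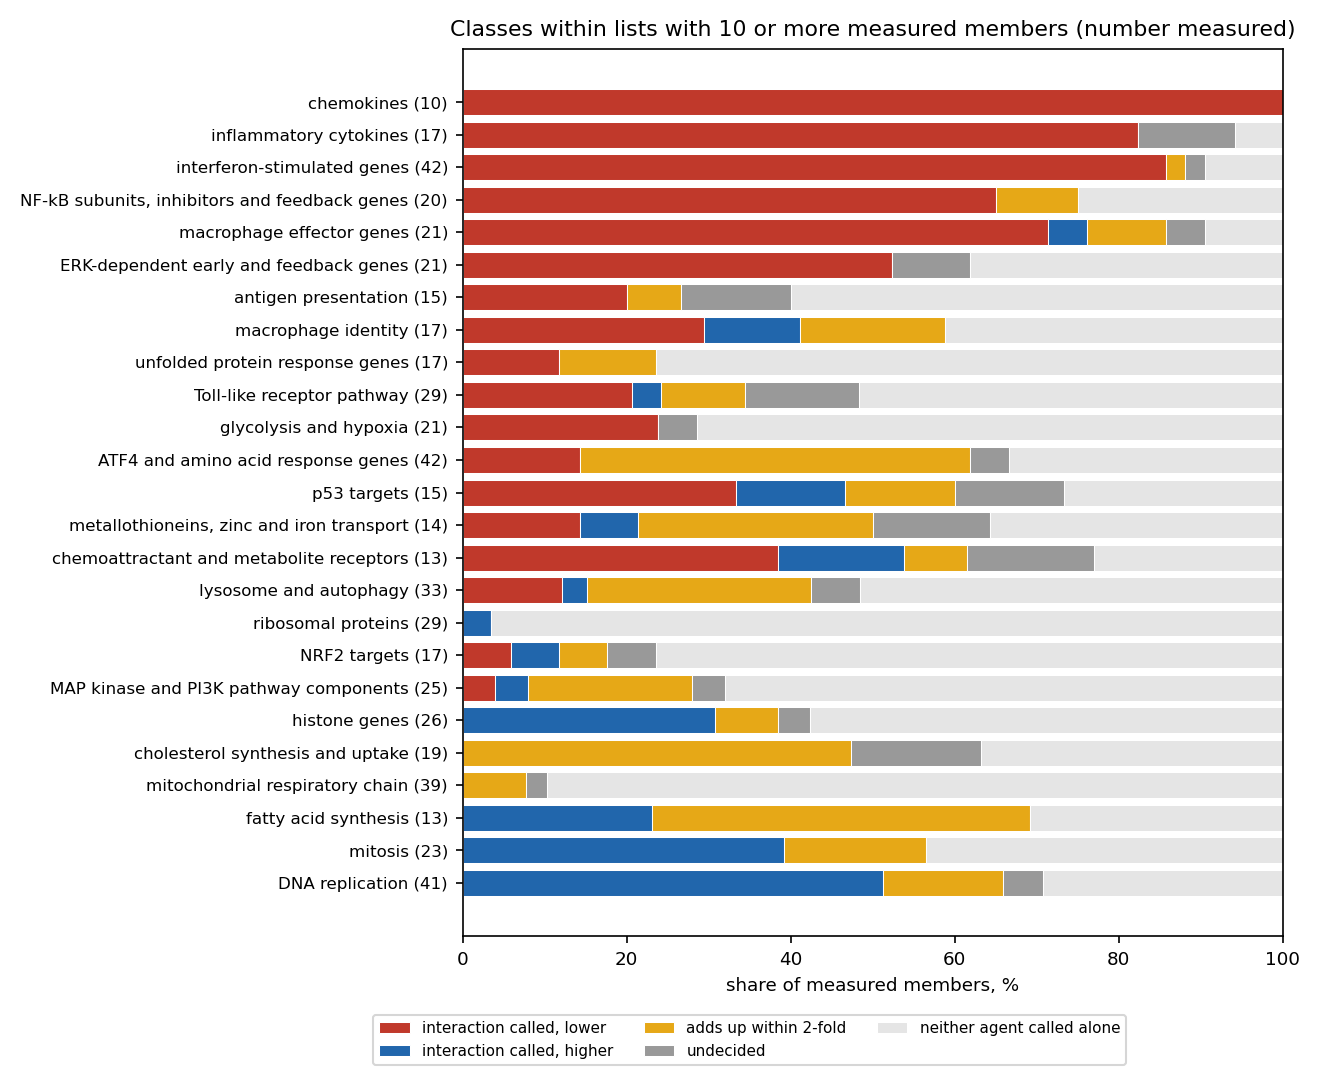
Share of measured members of each gene list, in percent, by class: negative interaction, positive interaction, adding up within 2-fold, undecided, and neither agent called alone. The number measured stands in brackets. Chemokines are negative in 10 of 10, DNA replication genes positive in 21 of 41, and cholesterol genes add up in 9 of 19 with no interaction called.

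Genes were said to add up when at least 1 agent alone passed the threshold, the interaction did not, and the 95% confidence interval of the interaction lay within a 2-fold change either way. This held for 1152 genes, of which 335 responded to gefitinib only, 703 to CpG only and 114 to both. For each of the 703, a lost CpG response could not be told from adding up, as described below. A further 271 genes were undecided because the interval went past 2-fold, and 5692 were called for neither agent alone, 14 of which had a called interaction.

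Most genes called for gefitinib alone kept the direction of the gefitinib effect with CpG. The interaction was called for 152 of the 632 (24.1%), against 12.3% of all genes. The 632 were chosen on gefitinib and untreated arrays, which enter the interaction with the opposite sign, so a higher share is partly built in. Of the 152, 148 were among the 277 genes called for both agents alone. Of the 402 raised by gefitinib alone, 374 had the same direction with CpG and 318 passed the threshold there in that direction, and of the 230 lowered, 197 and 139 did. Over all genes gefitinib called 3019 (37.3%) with CpG, 1786 higher (22%) and 1233 lower (15.2%), and 632 (7.8%) without it, 402 higher (4.96%) and 230 lower (2.84%). For the 203 genes of the gefitinib-only adding-up class that gefitinib raised, the median gefitinib effect was 0.53 with CpG and 0.56 without it, 199 of 203 had the same direction and 158 passed the threshold with CpG. For the 132 lowered ones, it was -0.43 with CpG and -0.52 without it, 130 had the same direction and 85 passed the threshold with CpG. The class was chosen on an interaction that was not called, so its agreement is a description. The effects with and without CpG share no array. The 632 rested on every array of the contrast, and between 207 and 386 genes were called when any 1 of the 6 gefitinib or untreated arrays was left out.

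Aldh1l2, a mitochondrial enzyme of folate metabolism, had 8.66, 8.72 and 8.82 in CpG with gefitinib, 7.12, 6.51 and 6.58 in CpG, 8.85, 9.0 and 8.85 in gefitinib, and 7.19, 6.67 and 6.58 in untreated cells. Both gefitinib groups lay above both groups without it, whether CpG was present or not. The gefitinib effect on Aldh1l2 was 2.00 with CpG and 2.08 without it, and the interaction was -0.09 with a 95% interval of -0.62 to 0.45. Slc6a9, a glycine transporter, had a gefitinib effect of 2.05 with CpG and 2.01 without it, and an interaction of 0.04. Atf5, a stress-response transcription factor, had 1.21 with CpG and 1.25 without it, and Trib3, a pseudokinase induced downstream of ATF4, had 0.59 with CpG and 0.68 without it. The probe of Trib3 was detected on 2 of 3 CpG arrays and 1 of 3 untreated arrays, so those levels are near background. Aldh1l2, Slc6a9, Atf5 and Trib3 belong to the genes that ATF4 drives when amino acids are short or the endoplasmic reticulum is stressed. Of 42 measured members of that list, 20 added up (14.2% of all genes), 6 had a negative interaction (6%) and 0 a positive one (6.34%). Gefitinib alone raised 23 of them, against 4.96% of all genes.

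Sterol synthesis genes, which SREBP2 drives when membrane cholesterol is low, were mostly raised by gefitinib, both with CpG and without it. Of 19 measured members 0 had a called interaction (12.3% of all genes), and gefitinib raised 15 with CpG (22% of all genes) and 12 without it (4.96%). In all, 9 added up (14.2% of all genes), 3 were undecided and 7 were called for neither agent alone. The median gefitinib effect over the list was 1.02 with CpG and 0.92 without it, against 0.06 with CpG and -0.0019 without it over all genes. Cyp51, the lanosterol demethylase, had 9.69, 9.62 and 9.72 in CpG with gefitinib, 7.96, 8.62 and 8.57 in CpG, 9.74, 9.67 and 9.89 in gefitinib, and 7.97, 8.64 and 8.86 in untreated cells. Both gefitinib groups lay above both others, and the interaction of Cyp51 was 0.02 with an interval of -0.62 to 0.66. Aacs, which activates acetoacetate for lipid synthesis, had a gefitinib effect of 1.53 with CpG and 1.43 without it. Hmgcs1, the synthase of HMG-CoA, had 12.51, 12.22 and 12.40 in CpG with gefitinib, 10.08, 10.78 and 10.77 in CpG, 12.48, 12.37 and 12.39 in gefitinib, and 10.38, 11.12 and 11.27 in untreated cells. The groups split in the same way, but the interaction of 0.34 had an interval of -0.33 to 1.02, just past the 2-fold limit, so Hmgcs1 was undecided.

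Fatty acid synthesis genes were mixed, since CpG alone lowered 7 of 13 measured members (15.3% of all genes) while gefitinib alone raised 7 (4.96% of all genes). Scd1, the stearoyl-CoA desaturase, had 9.54, 9.29 and 9.32 in CpG with gefitinib, 7.49, 7.75 and 7.51 in CpG, 9.54, 9.33 and 9.33 in gefitinib, and 8.39, 8.51 and 8.56 in untreated cells. CpG was lowest, untreated cells lay between, and both gefitinib groups were high and overlapped. The CpG effect on Scd1 was -0.01 with gefitinib, against -0.90 without it, and the interaction was 0.89 ± 0.16 (SE; limma, adjusted p = 0.00245). The elongase Elovl6 had an interaction of 0.71, which missed the threshold with median scaling (adjusted p = 0.0568). For Scd2, a second desaturase, the single effects of opposite direction came closer to adding up: 8.14, 8.12 and 7.98 in CpG with gefitinib, 6.69, 7.12 and 7.08 in CpG, 8.46, 8.30 and 8.69 in gefitinib, and 7.53, 7.86 and 7.84 in untreated cells. The measured joint effect on Scd2 was 0.34, against a sum of -0.04, and the interaction was 0.38 with an interval of -0.06 to 0.82. The CpG effect on Scd2 was -0.40 with gefitinib, against -0.78 without it, and a full loss of it would also lie within that interval. Slc40a1, the iron exporter ferroportin, resembled Scd1: gefitinib alone raised it by 1.26, CpG alone lowered it by a log2 difference of -1.05, and the interaction was 1.01 ± 0.17 (SE; limma, adjusted p = 0.00131).

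**Figure D4:**
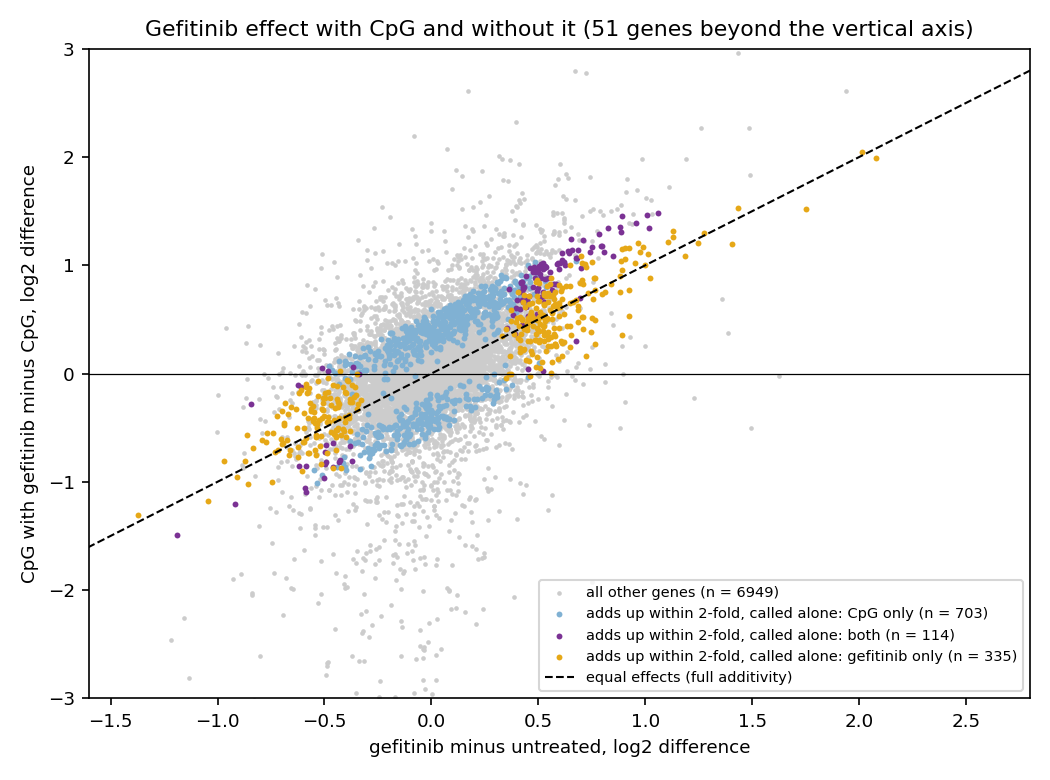
Each point is 1 of 8101 genes, with its gefitinib effect with CpG (CpG with gefitinib minus CpG) on the vertical axis and its gefitinib effect without CpG (gefitinib minus untreated) on the horizontal axis, both in log2 units, and 51 genes lie beyond the vertical axis. Genes that add up lie near the dashed line of equal effects, the 335 gefitinib-only genes (orange) along its length and the 703 CpG-only genes (blue) beside its centre.

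For single genes that responded to CpG only, adding up and losing the response could not be told apart at these sizes. As a group, their median CpG effect was near 0 with gefitinib, where adding up would leave it as it was without gefitinib. The class was chosen on the CpG effect and on an interaction that was not called, so its medians are a description. The 220 genes of this class that CpG raised had a median CpG effect of 0.06 with gefitinib, against 0.44 without it, and the 483 that it lowered had -0.07 with gefitinib, against -0.46 without it. Simulated data of this design had 200 of 8101 genes changed. There an interaction of 0.5 log2 units was recovered in 9.63% of cases and one of 1 in 78.4%. A CpG effect with gefitinib of 0.5 was recovered in 37.9%. More genes were called in the measured data, 1000 for the interaction, so recovery there may differ. Among the largest of the CpG-only genes was Inf2, a formin of the actin and microtubule skeleton. Its CpG effect was -0.37 with gefitinib, against -0.83 without it. Ptpro, a receptor tyrosine phosphatase, had -0.32 with gefitinib, against -0.82 without it. Its other probe, detected on 12 arrays, gave -0.36 with gefitinib and -0.32 without it, so the probes of that gene disagree. The thiamine transporter Slc19a2 had -0.25 with gefitinib, against -0.79 without it. With a replicate block the interactions of Ptpro (limma, adjusted p = 0.0296) and Slc19a2 (limma, adjusted p = 0.038) were called, and that of Slc19a2 in 3 other alternatives. 

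Both agents alone passed the threshold for 277 genes. Both single effects and the joint effect are taken against the same 3 untreated arrays, which enter the sum once more than the joint effect, so a gap between them is partly built into this choice and the values are a description. The interaction was called for 148 of them, 114 added up and 15 were undecided. Where both agents raised a gene, in 32 cases, the median measured joint effect was 0.63, against a median sum of 1.40, with 24 interactions called and 3 genes adding up. Where both lowered it, in 38 cases, the joint effect was -0.48, against a sum of -1.30, with 29 called and 7 adding up. Where CpG raised and gefitinib lowered, in 54 cases, the joint effect was -0.49, against a sum of 0.27, with 37 called and 17 adding up. Where CpG lowered and gefitinib raised, in 153 cases, the joint effect was 0.44, against a sum of -0.02, with 58 called and 87 adding up. In the order of these kinds, the median effect of gefitinib alone was 0.69, -0.60, -0.59 and 0.57, so the joint effects lay near it. Psap, the precursor of the saposins that help degrade lysosomal lipids, was lowered by CpG and raised by gefitinib. Its joint effect was 0.38, against a sum of -0.15. Its interaction of 0.53 lay just outside the threshold (limma, adjusted p = 0.0509) and was called in 5 of 20 alternatives.

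Chac1, a glutathione-degrading enzyme of the ATF4 response, rose with either agent and no further with both. It had 9.06, 8.64 and 9.07 in CpG with gefitinib, 9.09, 8.51 and 9.23 in CpG, 8.85, 8.74 and 8.52 in gefitinib, and 7.14, 6.96 and 7.13 in untreated cells. The 3 treated groups overlapped and lay above untreated cells. The joint effect on Chac1 was 1.85, against 1.63 for gefitinib alone and a sum of 3.49. The CpG effect on Chac1 was 0.22 with gefitinib, against 1.86 without it, and the interaction was -1.65 ± 0.25 (SE; limma, adjusted p = 0.000651). Slc7a11, the cystine transporter that feeds glutathione synthesis, had 7.64, 8.34 and 8.18 in CpG with gefitinib, 8.76, 8.27 and 8.65 in CpG, 7.86, 8.44 and 8.42 in gefitinib, and 6.65, 6.80 and 6.79 in untreated cells. Its joint effect was 1.30, against 1.49 for gefitinib alone and a sum of 3.30, and its interaction was -2.00 ± 0.28 (SE; limma, adjusted p = 0.0003).

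Vegfa, the vascular growth factor, had 7.50, 7.63 and 7.91 in CpG with gefitinib, 7.63, 7.61 and 7.79 in CpG, 7.57, 7.49 and 7.65 in gefitinib, and 6.64, 6.56 and 6.82 in untreated cells. The 3 treated groups overlapped here too, with a joint effect on Vegfa of 1.00, against 0.90 for gefitinib alone and a sum of 1.90. The interaction of Vegfa was -0.90 ± 0.17 (SE; limma, adjusted p = 0.00355, and 0.0535 with median scaling). Ddit3, the stress factor CHOP, had a joint effect of 0.92, against a sum of 1.56, and its interaction of -0.64 had an interval of -1.30 to 0.02, so it was undecided. Mt2, a metallothionein, was undecided as well, with an interaction of 0.67 and an interval of -0.25 to 1.60. Flt1, a receptor for Vegfa, moved the other way and counted as adding up. CpG alone raised it by 0.49 and gefitinib alone lowered it by a log2 difference of -1.19. The joint effect was -1.01, against a sum of -0.70, and the interaction of -0.31 had an interval of -0.76 to 0.15. The CpG effect on Flt1 was 0.18 with gefitinib, and a full loss of it would also lie within that interval.

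The promoters of Chac1 and Hmgcs1 are shown because a non-additive and an undecided gene of the 2 gefitinib-raised programs each hold the motif of its program. They are again the 250 bases before the RefSeq start on GRCm38.p6, at chr2:119350992-119351241 (+ strand) for Chac1 and chr13:119690101-119690350 (+ strand) for Hmgcs1. Capitals mark the C/EBP-ATF response element TGATGNAA, read on the other strand in Chac1, and the sterol regulatory element TCACNCCAC in Hmgcs1.
Chac1: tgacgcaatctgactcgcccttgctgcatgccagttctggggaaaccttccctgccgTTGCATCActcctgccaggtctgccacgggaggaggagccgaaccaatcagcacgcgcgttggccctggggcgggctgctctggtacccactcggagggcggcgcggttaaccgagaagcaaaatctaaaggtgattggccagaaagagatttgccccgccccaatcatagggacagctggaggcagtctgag
Hmgcs1: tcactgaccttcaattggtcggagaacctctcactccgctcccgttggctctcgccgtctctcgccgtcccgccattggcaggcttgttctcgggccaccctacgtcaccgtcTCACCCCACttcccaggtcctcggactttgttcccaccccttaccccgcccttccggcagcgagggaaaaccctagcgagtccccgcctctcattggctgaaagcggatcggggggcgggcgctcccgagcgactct
On either strand TGATGNAA was present in 20.5% of 39 promoters of the ATF4 list, against 2.1% of the promoters of all genes tested and 3.45% of all promoters. TCACNCCAC was present in 5.26% of 19 promoters of the cholesterol list, against 0.948% of the promoters of all genes tested and 1.05% of all promoters. That is 1 promoter, the one of Hmgcs1 shown here, so Hmgcs1 is not typical of its list in this respect. For the gefitinib-only adding-up genes that gefitinib raised, 3.49% of 229 promoters held TGATGNAA and 0.873% held TCACNCCAC.

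**Figure D5:**
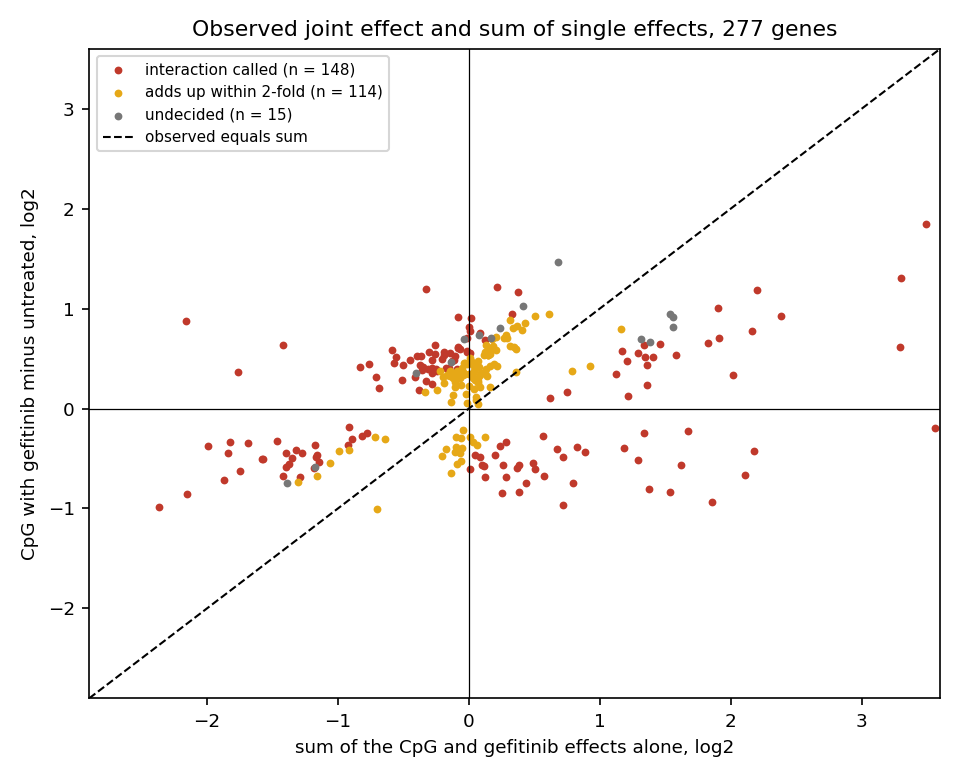
The 277 genes called for both agents alone, with the measured joint effect (CpG with gefitinib minus untreated) on the vertical axis and the sum of the single CpG and gefitinib effects on the horizontal axis, in log2 units. Genes that add up would lie on the dashed line. Genes raised by both agents (far right) and lowered by both (far left) lie nearer 0 than their sums, with medians of 0.63 against 1.40 and of -0.48 against -1.30.

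The interaction was measured on a log scale, where additivity means multiplication of folds. On the linear scale the sign of the interaction, taken from back-transformed group means, was the same for 1000 of 1000 called genes. No test was run on that scale, so this count does not show how many interactions would be called there. Median scaling between arrays, in place of quantile normalization, called 534 interactions rather than 1000, and 163 rather than 1152 genes added up.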

How the data were processed

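RNA of 12 RAW264.7 cultures was measured on Illumina mouse bead arrays. The deposited table holds, per probe and array, a non-normalized intensity and a detection p-value, exported by the authors from GenomeStudio 2010.2 per the submitters' processing notes. A value table of the same arrays, also deposited intensity, with the same order of probes, served as an alternative. All else was computed here. Intensities were background-corrected from the detection p-values (normexp, offset 16), quantile normalized and logged (neqc, limma 3.58.1, R 4.3.3). Probes with detection p under 0.05 on at least 3 of 12 arrays were kept (11977 of 25697), 11283 of which have 1 symbol, and the brightest kept probe stood for each of 8101 genes. Group means of 4 groups were fitted with lmFit, contrasts.fit and eBayes (8 residual degrees of freedom) and p-values adjusted by Benjamini-Hochberg over all genes, with a threshold of 0.05. Values given per array are log2 normalized signals, and the precision is limited by 3 arrays per group. The labels call the replicates biological but do not say whether the cultures were separate, so p-values measure the spread between these arrays.

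Named genes were the 15 lowest and 15 highest called interactions among genes detected on at least 2 of 3 arrays in every group, and the 8 brightest in CpG of those detected in CpG alone. Of the genes that add up, the 6 with the largest CpG effect, the 6 with the largest gefitinib effect and the 8 with the largest effects of both were added. The extremes of lists with at least 3 called members and a short fixed set completed the rule. Genes named beside them as list members (Ccl2, Irf7, Errfi1, Rhbdf2, Adam17) were picked after their values were seen. The 31 gene lists and all rules were chosen with earlier results of these data known. On simulated data (8101 genes, 200 changed) the test found 9.63% of interactions of size 0.5 (log2), 78.4% of size 1 and 99.7% of size 2, with 5.06% of calls false. Promoters were matched by symbol for 6672 of the 8101 genes.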

Additional observations from a re-analysis of the deposited data

Results flagged for a closer look

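The CpG effect differed between cells with and without gefitinib by a test of the difference itself for 1000 of 8101 genes, as described above. Data outside these comparisons carried the same signal: of 694 kept probes without a gene symbol, 67 (9.65%) had a called interaction (limma, fitted and adjusted over those probes alone), 37 negative and 30 positive, while 162 were called for CpG without gefitinib and 0 for CpG with gefitinib.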

How the results depend on the processing

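No called interaction changed sign in any of the 20 alternatives in which it was tested (829 of the 1000 with detection required on all 12 arrays, 1000 in each of the others), and CpG with gefitinib against gefitinib called 0 genes in all of them. The count of interactions was 923 to 1183 under the alternatives that kept all arrays, except median scaling between arrays, which called 534 (253 positive, 281 negative, 526 shared with the 1000). Median scaling also called 137 genes for gefitinib without CpG, 2003 for gefitinib with CpG, and 163 that add up. The cause was not tested. The authors' value table called 951 genes for gefitinib without CpG, and a bound of 0.75 in place of 1 log2 unit left 662 that add up. Leaving out 1 array at a time gave 772 to 1016 interactions (372 to 511 positive, 400 to 518 negative), 1637 to 1994 calls for CpG and 207 to 848 for gefitinib, each without the other agent, 2456 to 3068 for gefitinib with CpG, and 686 to 1158 genes that add up, the lowest without untreated replicate 2. The replicate numbers were not taken as pairs, since correlations of same-numbered arrays ran from -0.15 to 0.35, although 11 of 12 arrays correlated best with their own number. The fit with a replicate block called 1183 interactions, 987 of them among the 1000. A slide block was not run, because the files used here give no slide. Genes near background have folds only as bounds, and interactions under 1 log2 unit were often not detectable with 3 arrays per group.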
